A study of Arabidopsis thaliana with 8 samples.

Results

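The transcripts described here are those that stood clearly higher in Arabidopsis thaliana seeds after imbibition at 4 °C than after imbibition at 22 °C. They were selected on the deposited array intensities themselves. A probe set entered when its lowest value on the 4 arrays at 4 °C was at least 1.5 times its highest value on the 4 arrays at 22 °C, and when its mean at 4 °C was at least 20. Both genotypes were pooled for this choice. The probe sets of STZ, AT2G42560, AT1G18740, AT3G19680, GI, COR27 and COR28 were left out by name. Of 22746 probe sets, 188 passed and 5 of those were left out, which leaves 183 members, or 0.805% of the array. The same rule turned round, for transcripts lower at 4 °C, found 118 probe sets. Because temperature chose the members, their temperature differences are given as a description and carry no test.

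The study compared seeds of wild-type Col-0 with seeds of 35S-GSH1, a line in the Columbia (Col-0) background that overexpresses GSH1. GSH1 is the first enzyme of glutathione synthesis, and the viral 35S promoter is active in most plant tissues. For both genotypes, seeds took up water during 24 h either at 22 °C, without vernalization, or at 4 °C, with vernalization. Each of the 4 groups (Col-0 at 22 °C, 35S-GSH1 at 22 °C, Col-0 at 4 °C and 35S-GSH1 at 4 °C) had 2 replicate arrays. The labels do not say whether replicates came from separate seed batches, or how many independent lines 35S-GSH1 stands for, so p-values measure only the spread between these samples. The genotype rests on the labels, since the GSH1 transcript was not analysed here.

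Imbibition is the uptake of water that restarts metabolism in a dry seed and leads to germination. A period of cold and moist conditions, called stratification, releases dormancy in many seeds, and cold also slows the steps that lead from imbibition to root emergence. Seeds at the same hour at different temperatures can therefore differ in their progress as well as in their response to cold. The stage of the seeds was not measured, so the 2 cannot be told apart in these values. In whole seeds, fewer cells of a type and less RNA per cell cannot be told apart either.

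The arrays were not level in brightness. Median intensities were 12.3 to 14.2 at 22 °C and 13.2 to 16.2 at 4 °C. The brightest 2 were replicate 1 of each genotype at 4 °C, whose trimmed means lay 7.62% and 9.71% from the median of all 8 arrays. The seed markers OLEO3, an oil body protein, and PAP85, a storage protein, were the 2 of 19 seed markers listed as the single gene of a probe set. Their summed intensity was 8702.2 to 10277.0 at 22 °C and 8977.7 to 11695.9 at 4 °C, and the lowest value of any array was 489 for OLEO3 and 8101.9 for PAP85. The 2 green leaf markers listed in this way, of 11, were RCA, the activase of Rubisco, and LHCB4.1, a light-harvesting protein. Their summed intensity was 260.5 to 291.5 at 22 °C and 378.2 to 458.2 at 4 °C, without overlap. The difference lay in LHCB4.1, at 225.9 to 264.1 and 346.8 to 431, whose temperature difference passed in neither genotype (adjusted p = 0.0735 and 0.0779 in limma). RCA overlapped, at 18.8 to 34.6 and 27.2 to 33.4. The part of LHCB4.1's difference in the results was not tested. BAN, the 1 of 4 seed coat markers listed in this way, lay between 0.4 and 6.8, and neither of the 2 endosperm markers was so listed. Markers without such a listing may still be measured by probe sets with no listed gene or with several.

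Most members cleared the threshold by a small margin. The lowest 4 °C value was 1.5 to under 2 times the highest 22 °C value in 142 members, 2 to under 3 times in 33, 3 to under 4 times in 5, and at least 4 times in 3. Just inside the threshold, AT1G50040 went from a highest 22 °C value of 30 to a lowest 4 °C value of 45, and AT1G10110 from 10.2 to 15.3. The probe set 263909_at went from 19.3 to 29.0. Just outside were AT4G29780, at 119.2 and 178.7, the probe set 258603_at, at 375.0 and 561.8, and AT2G18940, at 16.9 and 25.3. The ratios of these 6 probe sets ran from 1.497 to 1.503, so the boundary separates transcripts of nearly the same behaviour.

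**Figure D1:**
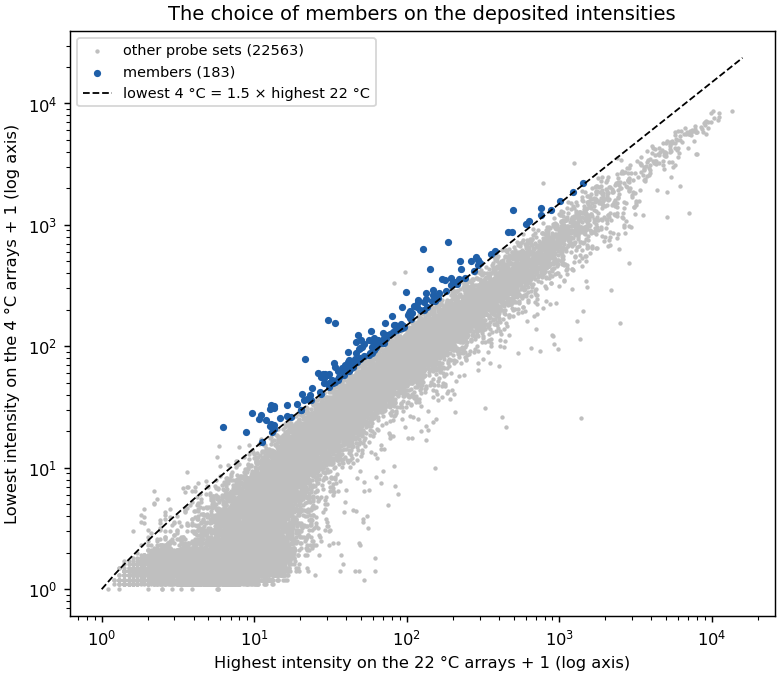
Each point is a probe set, with its highest deposited intensity on the 22 °C arrays (plus 1) on the horizontal log axis and its lowest on the 4 °C arrays (plus 1) on the vertical log axis. The 183 members, in blue, lie on or above the dashed line, which marks a ratio of 1.5, and most lie close to it. Grey points above the line are the 5 probe sets left out by name and those with a mean under 20 at 4 °C.

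Few members were near 0 at 22 °C. Their mean intensity at 22 °C had a median of 52.6 (3.0 to 1311), against 13.1 over all probe sets, and 161 of the 183 lay above the latter value. At 4 °C the median of their means was 123 (20.1 to 2729), against 14.3 over all. By the rule no mean could lie under 20 at 4 °C, so all 183 were bound to lie above the 4 °C median of all probe sets. How far that floor also bears on their 22 °C means was not tested. The mean at 4 °C was 20 to under 50 in 30 members, 50 to under 100 in 41, 100 to under 500 in 88 and at least 500 in 24. The fold of the 4 °C mean over the 22 °C mean had a median of 2.33, with quartiles of 2.07 and 2.91 and a range of 1.65 to 9.52. Large folds were thus few. For 15 members at least 1 array at 22 °C lay under 6.26, the intensity that matches the filter on low values used for the tests, and their folds depend on dim values.

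Annotation covered fewer of the members than of the array. No gene was listed for 96 members (52.5%), against 38.4% of all probe sets, and 1 gene was listed for 81 members (44.3%), against 59.4%. The other 6 members were paired with 2 genes each, whose transcripts cannot be told apart by the probe set, and neither gene is named. The 81 members with 1 gene stood for 81 loci, of which 80 are protein coding and 1, AT5G28430, is a pseudogene. Only 9 had a gene symbol beyond the locus tag. Locus tags are printed without a role, because the tables used give none. AT4G27654 and AT4G27657 are next to each other in gene order, with no overlap of their spans, and AT3G50340 and AT3G50370 lie 3 genes apart. No other members with 1 gene lay within 3 steps of each other.

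The widest gaps belonged to probe sets with no listed gene. For 264661_at the deposited intensities were 26.8 and 16.3 in Col-0 and 24.5 and 29.3 in 35S-GSH1 at 22 °C. At 4 °C they were 219 and 374 in Col-0 and 166 and 164 in 35S-GSH1, a ratio of lowest to highest of 5.61. For 252212_at the values at 22 °C were 123 and 123 in Col-0 and 127 and 126 in 35S-GSH1. They were 1003 and 1218 in Col-0 and 859 and 636 in 35S-GSH1 at 4 °C, a ratio of 5.0. In both probe sets every Col-0 value at 4 °C was higher than every 35S-GSH1 value, and at 22 °C the genotypes overlapped in 264661_at and lay within 123 to 127 in 252212_at. The probe set 263064_at read 19.1 and 32.6 in Col-0 and 23.2 and 25.7 in 35S-GSH1 at 22 °C, and 155 and 187 in Col-0 and 222 and 166 in 35S-GSH1 at 4 °C. Here the genotypes overlapped at both temperatures. The probe set 257939_at was among the brighter members, with 118 and 139 in Col-0 and 156 and 186 in 35S-GSH1 at 22 °C, and 729 and 805 in Col-0 and 924 and 923 in 35S-GSH1 at 4 °C. In it, 35S-GSH1 lay above Col-0 at both temperatures. The probe set 259679_at was the dimmest of the 5, with 1.3 to 5.2 at 22 °C and 20.7 to 25.7 at 4 °C, and its fold of 7.42 rests on very dim 22 °C values.

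Among members paired with 1 gene, AT5G04500 had the widest gap, with a ratio of 2.85. Its deposited intensity at 22 °C was 27.9 and 56.8 in Col-0 and 90.1 and 97.4 in 35S-GSH1. At 4 °C it was 289.5 and 278 in Col-0 and 285 and 282 in 35S-GSH1. The genotypes were level at 4 °C and did not overlap at 22 °C, where 35S-GSH1 was higher.

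The next members in this order were dim at 22 °C. AT5G11070 read 6 and 8.2 in Col-0 and 10 and 2.1 in 35S-GSH1 at 22 °C, against 37.8 and 26.4 in Col-0 and 44.1 and 40.6 in 35S-GSH1 at 4 °C. AT1G78410 read 11.4 and 7.5 in Col-0 and 3.5 and 12.5 in 35S-GSH1 at 22 °C, against 41 and 35.8 in Col-0 and 41.8 and 31.5 in 35S-GSH1 at 4 °C. AT2G14800 read 5.7 and 8.9 in Col-0 and 6.6 and 9.8 in 35S-GSH1 at 22 °C, against 28.6 and 24 in Col-0 and 43.6 and 27 in 35S-GSH1 at 4 °C. In all 3 the genotypes overlapped at 22 °C, and in AT5G11070 they did not overlap at 4 °C. AT3G06750 went from 3 and 5 in Col-0 and 12.4 and 2 in 35S-GSH1 to 30.3 and 40.8 in Col-0 and 35.4 and 32 in 35S-GSH1. AT5G58300 went from 7 and 0.5 in Col-0 and 7.8 and 4.2 in 35S-GSH1 to 23.7 and 18.9 in Col-0 and 29.7 and 20.4 in 35S-GSH1. The replicates at 22 °C differed several-fold within a genotype in AT5G11070, AT1G78410, AT3G06750 and AT5G58300, so the folds of these genes are loosely set.

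The other 6 of the first 12 genes had 22 °C intensities of 8.1 or more on every array. AT5G17350 read 26.2 and 19.1 in Col-0 and 32.3 and 28.2 in 35S-GSH1 at 22 °C, and 75.9 and 85.6 in Col-0 and 85.4 and 71.9 in 35S-GSH1 at 4 °C. AT3G14330 read 40.3 and 38.6 in Col-0 and 38.9 and 36.5 in 35S-GSH1 at 22 °C, and 91.9 and 88.2 in Col-0 and 112 and 122 in 35S-GSH1 at 4 °C. AT4G02540 read 11 and 9.6 in Col-0 and 10.4 and 10.6 in 35S-GSH1 at 22 °C, and 25.2 and 26.4 in Col-0 and 23.7 and 25.3 in 35S-GSH1 at 4 °C. Of these 3, AT5G17350 had 35S-GSH1 above Col-0 at 22 °C without overlap, and AT3G14330 at 4 °C. AT3G50340 read 15.4 and 8.1 in Col-0 and 10.3 and 11.4 in 35S-GSH1 at 22 °C, and 31.9 and 46.4 in Col-0 and 39.8 and 37.7 in 35S-GSH1 at 4 °C. AT5G15680 read 25 and 47.5 in Col-0 and 30.4 and 40.5 in 35S-GSH1 at 22 °C, and 130.2 and 106 in Col-0 and 108 and 94.8 in 35S-GSH1 at 4 °C. AT2G39210 read 90.6 and 117 in Col-0 and 105 and 88.2 in 35S-GSH1 at 22 °C, and 282 and 286 in Col-0 and 256 and 232 in 35S-GSH1 at 4 °C. In AT2G39210 Col-0 was the higher genotype at 4 °C without overlap, while in AT3G50340 and AT5G15680 the genotypes overlapped at both temperatures.

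**Figure D2:**
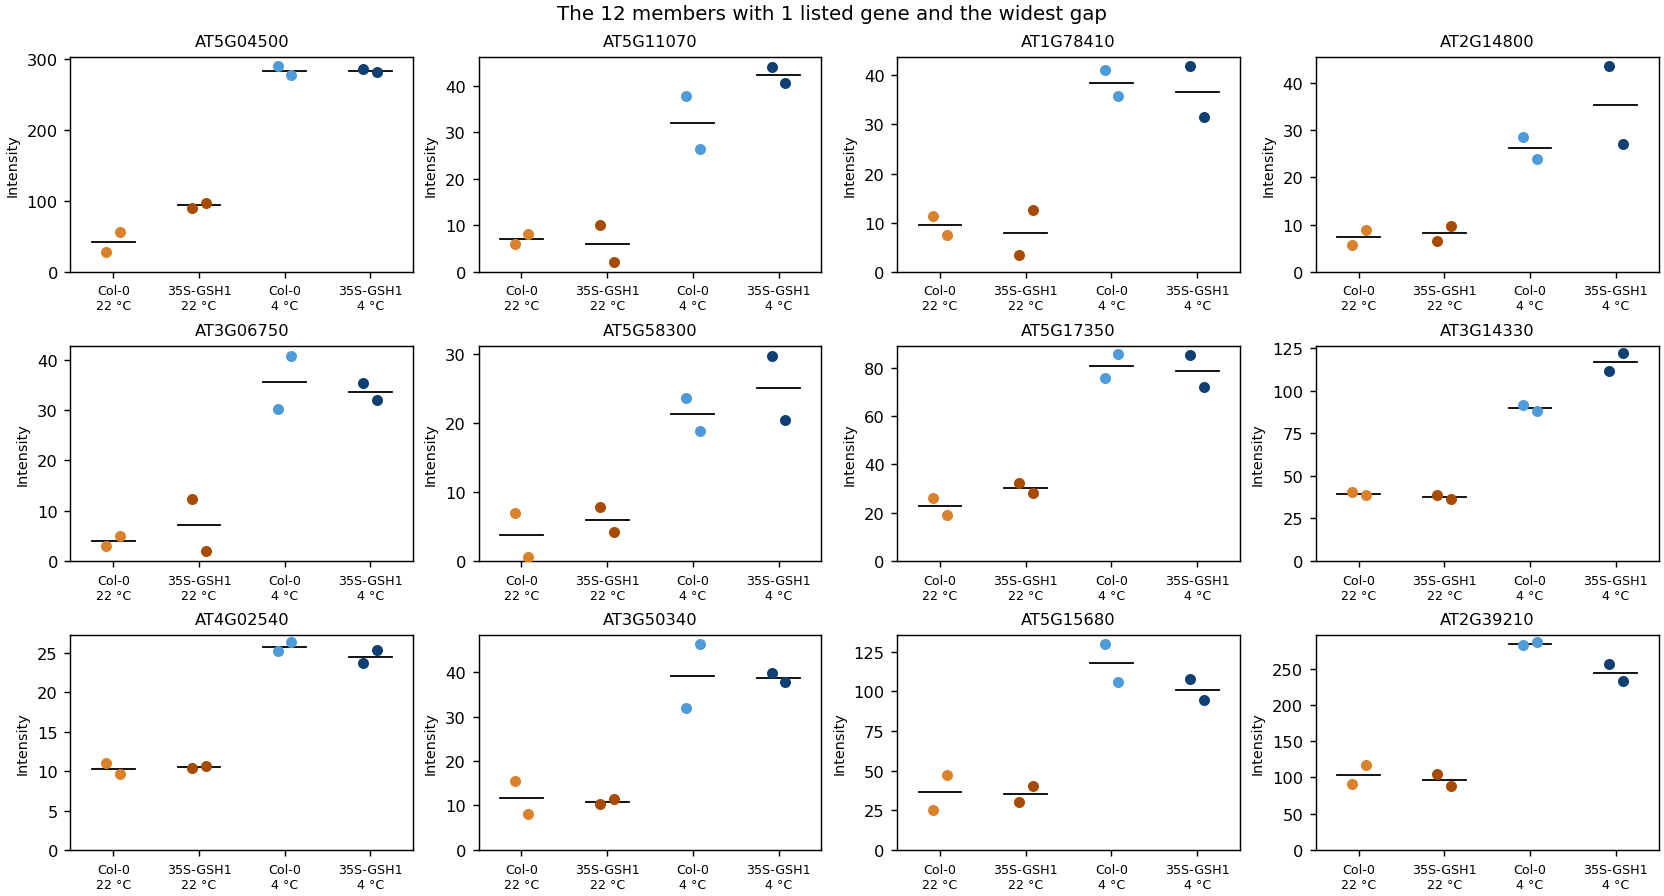
Each panel shows the deposited intensity (linear axis from 0) of 1 of the 12 members with 1 listed gene and the widest gap, with a point for each array and a bar at the mean of the 2 replicates of a group. In every panel the 4 values at 4 °C lie above the 4 at 22 °C, which the choice of members requires, and in AT5G04500 the 2 Col-0 values at 22 °C (27.9 and 56.8) lie under those of 35S-GSH1 (90.1 and 97.4).

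The next 18 members with 1 gene, in the same order, were AT3G14067, AT4G28080, AT5G58160, AT5G28430, AT2G05580, AT1G76580, AT2G42270, AT5G17580, AT5G20885, COB, AT3G52500, AT1G05150, AT3G51120, AT4G31875, AT5G65300, AT3G47080, AT5G09800 and AT5G35660. Their folds of means ran from 2.0 in AT3G47080 to 4.58 in AT4G31875, and their mean 4 °C intensities from 26.5 in AT5G17580 to 617 in AT5G35660. The remaining 51 members with 1 gene had ratios closer to the threshold. The 5 brightest members at 4 °C were 245711_at, with a mean of 2729, 248352_at at 2480, AT5G60760 at 1638, 247431_at at 1637 and 256430_at at 1562. Their 22 °C means were 1311, 1003, 906, 607 and 454 in that order, so 256430_at had the largest fold among them, at 3.44.

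The members with a gene symbol fell into 3 loose groups by what their products do. Growth and the cell wall were represented by COB, CSLC5 and ARL. COB encodes COBRA, a lipid-anchored protein needed for oriented cell expansion and cellulose deposition. It read 33.2 and 40 in Col-0 and 29.6 and 34 in 35S-GSH1 at 22 °C, and 88.8 and 78.3 in Col-0 and 81.8 and 73.5 in 35S-GSH1 at 4 °C. Its 4 °C mean was 2.36 times its 22 °C mean, with a similar fold in Col-0 (2.28) and 35S-GSH1 (2.44). CSLC5, a member of the family that makes the glucan backbone of xyloglucan, read 43.2 and 29.4 in Col-0 and 40.8 and 32.4 in 35S-GSH1 at 22 °C. At 4 °C it read 109 and 67 in Col-0 and 74.8 and 67.8 in 35S-GSH1, so the 2 Col-0 replicates enclosed both 35S-GSH1 values. ARL (ARGOS-LIKE), which promotes cell expansion downstream of brassinosteroid, read 109.7 and 180.3 in Col-0 and 129 and 103 in 35S-GSH1 at 22 °C, and 286 and 504 in Col-0 and 372 and 381 in 35S-GSH1 at 4 °C. It had the largest fold of the 9 symbols, 2.96, and the widest spread between Col-0 replicates at both temperatures among these 3 genes.

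Regulation and signalling were represented by TIC, GLR3.3 and ATL5. TIC (TIME FOR COFFEE) is a nuclear regulator of the circadian clock. It read 57.3 and 61.9 in Col-0 and 60.4 and 84.6 in 35S-GSH1 at 22 °C, and 176 and 139.6 in Col-0 and 162 and 153 in 35S-GSH1 at 4 °C. GLR3.3, a glutamate receptor-like channel that takes part in wound-induced calcium signals, read 15.3 and 14 in Col-0 and 10.9 and 16.4 in 35S-GSH1 at 22 °C, and 29.4 and 25.2 in Col-0 and 26.2 and 26.2 in 35S-GSH1 at 4 °C. ATL5, of the ATL family of RING-H2 finger proteins, read 37.7 and 31.1 in Col-0 and 25.6 and 34.2 in 35S-GSH1 at 22 °C, and 60.2 and 70.3 in Col-0 and 66.3 and 75.7 in 35S-GSH1 at 4 °C. In all 3 the genotypes overlapped at both temperatures. TIC had a fold of 2.39, ATL5 of 2.12 and GLR3.3 of 1.89.

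Gene expression and metabolism were represented by IYO, FUG1 and PDC2. IYO (MINIYO), an RNA polymerase II-associated protein that starts cell differentiation, read 90.7 and 88.7 in Col-0 and 81.4 and 77.1 in 35S-GSH1 at 22 °C, and 168 and 153 in Col-0 and 152 and 187 in 35S-GSH1 at 4 °C. At 22 °C its Col-0 values lay above those of 35S-GSH1, and at 4 °C the genotypes overlapped. FUG1, a chloroplast translation initiation factor, read 40.5 and 34.6 in Col-0 and 39.8 and 26.3 in 35S-GSH1 at 22 °C, and 65.7 and 63.4 in Col-0 and 96.6 and 65.1 in 35S-GSH1 at 4 °C, with the genotypes overlapping at both temperatures. PDC2, a pyruvate decarboxylase of ethanolic fermentation, was the brightest of the 9. At 22 °C it read 588 and 580.5 in Col-0 and 570.4 and 602 in 35S-GSH1, with overlap. At 4 °C it read 1095 and 1153 in Col-0 and 1017 and 1074 in 35S-GSH1, with Col-0 higher without overlap. Its fold of 1.85 was the smallest of the 9, and those of IYO and FUG1 were 1.95 and 2.06.

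**Figure D3:**
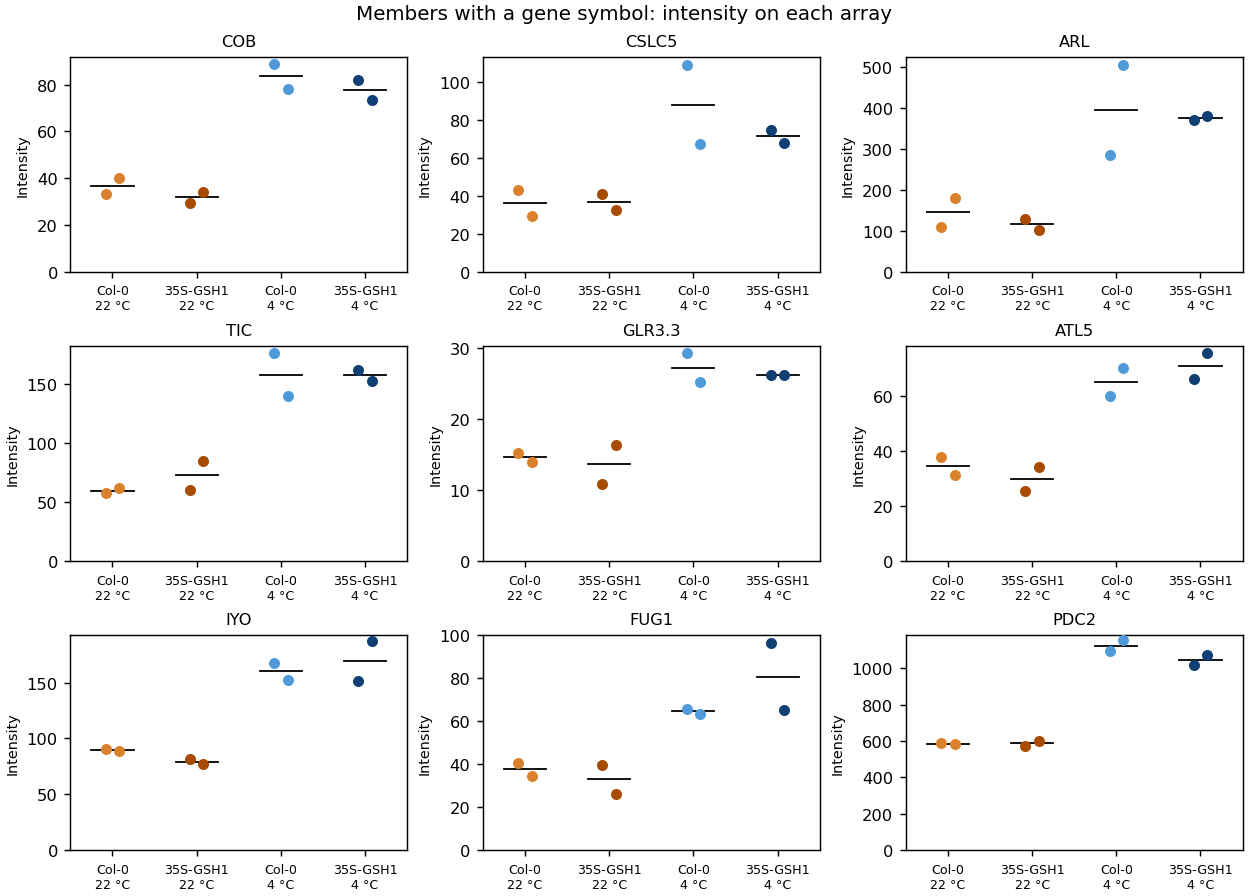
Each panel shows the deposited intensity (linear axis from 0) of 1 of the 9 members with a gene symbol, with a point for each array and a bar at the mean of the 2 replicates of a group. The 4 °C values lie above the 22 °C values in each panel by the choice of members, and the folds of means run from 1.85 in PDC2 to 2.96 in ARL.

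The scale of the arrays decided whether many members met the rule. With the arrays quantile normalized, 129 of the 183 members still met it, and with the arrays scaled to a common median, 96 did. On all 3 scales 86 members passed, among them all 41 members with a ratio of at least 2. Of those 41, 27 had no listed gene, 10 had 1 and 4 had 2. Of the 9 members with a symbol, COB was the one that kept a ratio of at least 1.5 on both other scales, at 1.76 and 1.71. PDC2 had ratios of 1.6 after quantile normalization and 1.29 at a common median, TIC 1.56 and 1.47, and CSLC5 1.41 and 1.53. IYO, ATL5, ARL, FUG1 and GLR3.3 had ratios of 1.22 to 1.48 on these scales. The lowest ratio of any member was 1.21 after quantile normalization and 1.15 at a common median, so no member lost its order. The members had been chosen at a ratio of at least 1.5. With array medians of 12.3 to 16.2, scaling to a common median could not reverse such a gap. Nothing is therefore read from the kept order. Replicate 1 exceeded replicate 2 at 4 °C in 135 members in 35S-GSH1 and 102 in Col-0 as deposited, and in 91 and 87 after quantile normalization.

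The temperature difference was described within each genotype on quantile-normalized log2(intensity + 1) values. Its median over the members was 1.133 in Col-0 and 1.104 in 35S-GSH1, against 0.007 and 0.004 over the 13648 probe sets tested. All 183 members were above 0 in both genotypes on the quantile-normalized, deposited and median-centred scales. The rule asked for that order, so nothing is read from it. The median of all probe sets tested was 0.125 in 35S-GSH1 on the deposited scale, against 0.004 after quantile normalization. In the fit with limma, 159 members (86.9%) passed an adjusted p of 0.05 as higher at 4 °C in Col-0, where 3.68% of all probe sets did, and 153 (83.6%) in 35S-GSH1, where 2.8% did. The rule used these same values, so nothing is read from those shares. In all, 139 members passed in both genotypes and 10 in neither, GLR3.3 and AT4G02540 among the latter. With 2 arrays per group, these counts moved with single arrays. Leaving out replicate 1 of Col-0 at 22 °C gave a Col-0 count of 87, and leaving out replicates 1 and 2 of Col-0 at 4 °C in turn gave 99 and 95. Leaving out replicates 1 and 2 of 35S-GSH1 in turn gave a 35S-GSH1 count of 78 and 91 for the 22 °C arrays, and of 82 and 79 for the 4 °C arrays. Without the intensity trend in the variance prior the counts were 43 and 34.

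**Figure D4:**
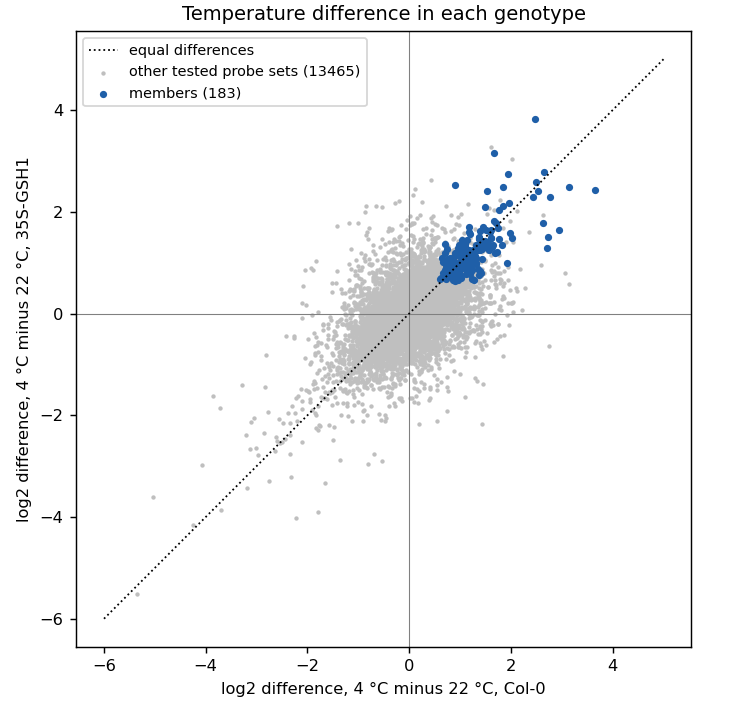
Each point is a tested probe set, with the log2 difference between 4 °C and 22 °C in Col-0 on the horizontal axis and in 35S-GSH1 on the vertical axis, both on quantile-normalized log2(intensity + 1) values. All 183 members, in blue, lie above 0 on both axes, where the rule puts them, with medians of 1.133 and 1.104, and the dotted line marks equal differences.

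The rule asked both genotypes to clear the same gap, so the folds in each genotype are a description. The fold of means had a median of 2.36 in Col-0 (1.61 to 13.8) and 2.38 in 35S-GSH1 (1.69 to 17.0), and it was the higher in Col-0 in 87 of the 183. The 2 folds differed by under 1.5 times in 166 members (90.7%), against 82.2% of all probe sets tested. Members were brighter than most probe sets, and the part of brightness or of the rule in this share was not tested. The fold was over 1.5 times larger in Col-0 in 10 members and over 1.5 times larger in 35S-GSH1 in 7. The difference itself was tested as the interaction of genotype and temperature. The rule did not use the interaction directly, but it asked for the gap in both genotypes. A transcript that rose in only 1 genotype could not enter, so strong interactions of that kind were kept out by the choice. No member passed after adjustment in limma (smallest adjusted p = 1), nor did any probe set of the array (0.0%). At an unadjusted p of 0.05, 7 members passed (3.83%), against 3.32% of all probe sets. The median interaction was 0.0 over the members and -0.001 over all, on the log2 scale. The 10th and 90th percentiles were -0.41 and 0.33 over the members, against -0.55 and 0.52 over all. The part of the rule or of brightness in the narrower range of the members was not tested. The 95% interval lay within 1 log2 unit of 0 in 117 members, so for each of the other 66 a difference of that size or more lay inside the interval.

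Members named for their interaction were chosen after their values were seen. In 256417_s_at the 4 °C mean was 7.62 times the 22 °C mean in Col-0 and 2.85 times in 35S-GSH1. Its interaction was -1.42 on the log2 scale (95% interval -2.31 to -0.54, adjusted p = 1 in limma). In 254770_at the folds were 2.05 in Col-0 and 8.28 in 35S-GSH1, from 22 °C values of 12 and 7.3 in Col-0 and 3 and 2.7 in 35S-GSH1. In 245757_at they were 6.3 and 17.0, from 13.5 and 20.6 in Col-0 and 8.8 and 3.8 in 35S-GSH1 at 22 °C. Both of these probe sets were dim at 22 °C and lower there in 35S-GSH1, and their interactions were 1.63 (0.28 to 2.99) and 1.35 (0.32 to 2.39). AT5G04500 had a fold of 6.7 in Col-0 and 3.02 in 35S-GSH1, and an interaction of -1.23 (-2.02 to -0.44). In 264661_at the folds were 13.8 and 6.13, with an interaction of -1.22 (-2.09 to -0.36). With 252212_at, at -0.65, and 253631_at, at -0.61, these were the 7 members under an unadjusted p of 0.05 in limma.

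The genotype comparisons asked whether overexpression of GSH1 altered these transcripts at either temperature. The rule did not use genotype. It did set an upper limit on every 22 °C value and a lower limit on every 4 °C value of a member, across both genotypes. A wide gap between genotypes within a temperature therefore made the rule harder to pass. At 22 °C no member passed in limma (smallest adjusted p = 0.743), where 0.0% of all probe sets passed. At an unadjusted p of 0.05, 10 members passed (5.46%), against 5.71% of all. At 4 °C no member passed either (smallest adjusted p = 1), where 0.0% of all passed, and 5 members (2.73%) passed at an unadjusted p of 0.05, against 3.22% of all. The median difference, 35S-GSH1 minus Col-0, was 0.024 log2 units at 22 °C and 0.009 at 4 °C over the members, against 0.003 and 0.001 over all. The 10th and 90th percentiles over the members were -0.27 and 0.30 at 22 °C and -0.28 and 0.23 at 4 °C. Over all they were -0.41 and 0.42 at 22 °C, and -0.36 and 0.35 at 4 °C. The part of the rule, or of the members' brightness, in their narrower range was not tested.

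The groups of the 2 genotypes did not overlap in 50 members at 22 °C on normalized values, 29 with 35S-GSH1 higher and 21 lower. That is 27.3% of the members, against 33.4% of all probe sets tested. At 4 °C they did not overlap in 30 members with 35S-GSH1 higher and 33 lower, or 34.4%, against 32.3% of all. With 2 arrays against 2, separation of this kind was common on the whole array. The 95% interval of the genotype difference lay within 1 log2 unit of 0 in 157 members at 22 °C and in 163 at 4 °C. A genotype difference of over 2.0-fold was therefore outside the interval for most members. The interval reached 0.462 log2 units to each side in the median member.

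The largest positive genotype difference at 22 °C among members was that of AT5G04500, 1.22 on the log2 scale (95% interval 0.66 to 1.78, adjusted p = 0.743 in limma). The adjusted p was 0.0364 without Col-0 22 °C replicate 2, where it was the 1 member that passed, and it lay between that value and 0.882 over all settings tried. At 4 °C its difference was -0.01. The largest negative differences at 22 °C were -1.59 in 245866_s_at, -1.39 in 254770_at and -1.32 in 245757_at, with adjusted p of 0.853, 0.834 and 0.759 in limma. These probe sets were dim at 22 °C, where 245866_s_at read 8.7 and 8.4 in Col-0 and 6.1 and 0.4 in 35S-GSH1. At 4 °C the members furthest apart were 256417_s_at, at -0.93, 264661_at, at -0.84, 252212_at, at -0.61, and AT4G35985, at 0.55, each with an adjusted p of 1 in limma. AT4G35985 read 236 and 338 in Col-0 and 454 and 391 in 35S-GSH1 at 4 °C, after 105 and 135 in Col-0 and 145 and 103 in 35S-GSH1 at 22 °C, so its genotypes overlapped at 22 °C and did not at 4 °C.

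**Figure D5:**
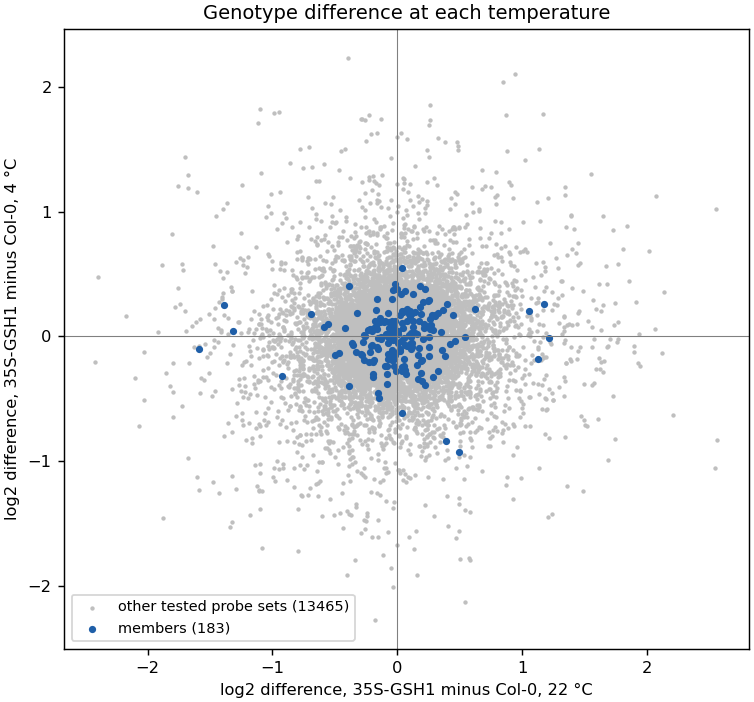
Each point is a tested probe set, with the log2 difference between 35S-GSH1 and Col-0 at 22 °C on the horizontal axis and at 4 °C on the vertical axis, both on quantile-normalized log2(intensity + 1) values. The 183 members, in blue, gather around 0 on both axes. Their 10th and 90th percentiles were -0.27 and 0.30 at 22 °C, against -0.41 and 0.42 over all probe sets tested. At 4 °C they were -0.28 and 0.23, against -0.36 and 0.35 over all.

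The median SD between replicates of the members was 0.164 log2 units in Col-0 and 0.175 in 35S-GSH1 at 22 °C, and 0.15 in Col-0 and 0.12 in 35S-GSH1 at 4 °C. Over all probe sets tested the 4 medians were 0.2, 0.18, 0.179 and 0.165 in the same order. The members' medians were the smaller in all 4 groups. The rule asks for a gap between all arrays, and the members were brighter than most probe sets. The part of either in the smaller SD was not tested.

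On 8 lists of related functions, 30 genes were tested. STZ, a zinc finger repressor of stress responses, and AT2G42560, a late embryogenesis abundant (LEA) gene, passed the rule and were left out by name, so their rise at 4 °C was fixed by the rule and they are not counted below. None of the other 28 was a member, where members were 1.34% of all probe sets tested. Since the 2 list genes that passed the rule had been left out by name, nothing is read from this count. Of these 28, 1 rose in Col-0 and 1 in 35S-GSH1, where 3.68% and 2.8% of all probe sets rose. None of the 28 fell in Col-0 and 2 fell in 35S-GSH1, where 3.3% and 2.78% of all probe sets fell.

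On the cold response list 2 of 24 genes were tested. The first, LTI30, a dehydrin, passed in neither genotype. The other, TIL, a lipocalin linked to cold and heat tolerance, fell by 0.51 log2 units in 35S-GSH1 (SE 0.135, adjusted p = 0.0404 in limma), and its difference in Col-0 was -0.43 (adjusted p = 0.076). The median of the 2 was -0.17 in Col-0 and -0.06 in 35S-GSH1. On the LEA list, whose products protect dry seeds, 14 of the 24 genes were tested besides AT2G42560, and AT4G36600 rose in both genotypes. Its difference was 0.85 in Col-0 (SE 0.173, adjusted p = 0.0095 in limma) and 0.73 in 35S-GSH1 (SE 0.173, adjusted p = 0.0256), and the median of the 14 was 0.18 and 0.15. On the early stress and calcium list 3 of 39 genes were tested besides STZ and none passed, with medians of -0.70 and -0.19.

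On the reserve mobilization list 3 of 11 genes were tested, with a median of -0.36 in both genotypes. CP1, a cysteine protease of reserve breakdown, fell by 1.26 in 35S-GSH1 (SE 0.332, adjusted p = 0.0399 in limma), and its difference in Col-0 was -0.68 (adjusted p = 0.258). On the gibberellin list 4 of 20 genes were tested and none passed, with medians of 0.31 in Col-0 and -0.23 in 35S-GSH1. On the cell wall loosening list 2 of 15 genes were tested and none passed, with medians of 0.16 and -0.40. None of the 20 genes on each of the abscisic acid and clock lists was listed as the single gene of a probe set, and TIC, a member, was not on the clock list. The lists were thinly covered, and 96 of the members carry no gene name through which a list could hold them.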

How the data were processed

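RNA extracted from whole seeds with a CTAB-based method was labelled with biotin and measured on 8 Affymetrix arrays, per the labels' protocols. The table holds intensity values deposited by the authors for 22746 probe sets, made with GCOS per the submitters' processing notes. The version, algorithm and scaling of GCOS were not given in the sources used here, and no detection calls were used. Precision is limited by the number of arrays.

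The members and gene lists were chosen with earlier results of these data known. Members came from the deposited intensities. Because trimmed means (2%) deviated by up to 9.71% from their median, above a tolerance of 5%, arrays were quantile normalized for the tests and log2(intensity + 1) was taken. Fold changes on this scale understate those of dim transcripts. Probe sets with a mean log2 value under 2.86 (the 40th percentile) were left out, which kept 13648 of them and all 183 members. A member bright at 4 °C was bound to pass this filter.

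A limma model (limma 3.58.1, R 4.3.3) with 1 coefficient for each of 4 groups and an intensity trend was fitted to all 8 arrays (4 residual and 9.93 prior degrees of freedom). It gave 2-sided p-values adjusted by Benjamini-Hochberg over all probe sets tested, with a threshold of 0.05, for 5 comparisons. The scripts were tested on simulated data. Genes came from the platform annotation, which gives 13513 probe sets 1 gene, 503 several and 8730 none, with loci matched to the RefSeq table of TAIR10.1. Named members follow the ratio of lowest 4 °C to highest 22 °C value: the first 30 with 1 gene (values per array for 12), the first 5 without a gene, the 5 brightest, the 3 on each side of the threshold and all with a symbol. The planned search for promoter motifs was not run, as no promoter sequences were used here.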

Additional observations from a re-analysis of the deposited data

How the results depend on the processing

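The counts of members that passed for genotype at 4 °C and for the interaction were 0 in limma under every alternative tried: 3 scalings, pseudocounts of 4 and 16, other filters and priors, fewer arrays and the replicate block. For genotype at 22 °C the count was 0 to 1 with single arrays left out, and 0 otherwise. The temperature counts were 159 in Col-0 and 153 in 35S-GSH1. Without the intensity trend they were 43 and 34, and the cause was not tested. With single arrays left out they ran from 87 to 156 and from 78 to 154, where a group of 1 array is assumed to vary like the others. Other alternatives gave 133 to 170 and 126 to 173. Of 2160 values of named members under alternatives, 1911 stayed on their side of the threshold, 235 no longer passed, 14 newly passed and 0 changed direction. These values include genotype and interaction differences, none of which passed in the main fit. The share that stayed is therefore no measure of how steady the temperature calls were. Since temperature chose the members, the temperature counts describe the fits. A pseudocount of 16 lowered the median differences to 0.93 and 0.92.

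The number of members was 183, and 544 at the lower ratio tried, 41 at a ratio of 2, and 201 and 159 at mean floors of 10 and 40. It was 132 on quantile-normalized values, 107 at a common median, 578 on the Col-0 arrays alone, 626 on the 35S-GSH1 arrays alone, and 203 to 252 with 1 array left out of the rule. These follow from the rule, as fewer arrays make it easier to pass.

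Same-numbered replicates deviated together weakly, with correlations of 0.051 to 0.143 over the 6 pairs of groups, all positive and not all above 0.1. The numbers were therefore not taken to pair the samples, and whether they mark a shared batch was not tested. Replicate 1 had the higher median intensity in all 4 groups. With the replicate block the counts were 0 for genotype and interaction, 170 in Col-0 and 169 in 35S-GSH1. The promoter motif comparison was not run.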
